A study of Mus musculus with 10 samples.

Results

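Cholesterol and fatty acid synthesis was followed through 28 genes of the SREBP pathway (sterol regulatory element binding proteins), listed by symbol, with no measured value in the rule that lists them, among 24016 gene symbols in the deposited transcription table. The sterol branch holds 21 of them, from the first mevalonate enzymes to cholesterol together with the genes that sense and move sterols, and the fatty acid branch holds 7. The assay was GRO-seq (global run-on and sequencing), in which polymerases already at work on a gene lengthen their transcripts with a labelled nucleotide in isolated nuclei, so that a value reflects ongoing transcription and not the amount of mRNA. The material was organoids, epithelial cultures grown in Matrigel from mouse duodenum. The WENRC group was kept in the stem cell medium, with EGF, Noggin, R-spondin, Wnt3A and the Wnt pathway activator CHIR-99021. The ENRI group was kept in the enterocyte differentiation medium, the same base with neither Wnt3A nor CHIR-99021 and with IWP-2, an inhibitor of Wnt secretion. The titles number mice 1 and 2 in each medium, while strain, age, genotype and time in the medium are not given in the sources used here. There were 2 GRO-seq libraries per medium, called batch 1 and batch 2 after the numbers in the table's header, which could not be tied to a mouse. H3K27me3, the histone mark of Polycomb repression, was mapped in 1 ChIP-seq library per medium.

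Srebf1 and Srebf2 encode membrane-bound transcription factors that the escort protein Scap carries from the endoplasmic reticulum to the Golgi when sterols are scarce, where proteases release the active part. Insig1 holds Scap back when sterols are plentiful, and is itself a target of the pathway. Srebf2 is best known for driving sterol synthesis and Srebf1 for driving fatty acid synthesis, and enterocytes combine their own synthesis with uptake of dietary sterol and fat.

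Most enzymes of both branches had a lower nascent level in ENRI, while Insig1, the sterol carrier gene Stard4 and Srebf1 had a higher one. As a ratio of mean RPKM (reads per kb of gene body scaled to the column total), ENRI was at 0.449 times WENRC for lanosterol synthase (Lss), 0.471 times for ATP citrate lyase (Acly), 0.488 times for cytosolic thiolase (Acat2), 0.518 times for fatty acid synthase (Fasn) and 0.539 times for squalene epoxidase (Sqle). For Insig1 it was 2.07 times, for Stard4 1.74 times and for Srebf1 1.39 times. Of the 28 members, 27 passed the filter of 0.5 RPKM in at least 2 libraries and were tested. Both ENRI libraries lay below both WENRC libraries for 15 of the 27, where the share among all genes tested was 49.7%, and above them for 4, where it was 23.0%. The other 8 overlapped. The lower count is near the background, so a lower level in ENRI was not particular to these genes. The median log2 change was −0.33 over the 27 tested members and −0.21 over all 11602 genes tested, of which 65.7% were lower in ENRI.

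No member passed the test over all genes. In limma 0 of 27 members had a Benjamini-Hochberg adjusted p under 0.05, where 0.147% of all genes tested did, 17 genes in number, or 0 with the batch as a replicate block. At an unadjusted p under 0.05, 9 members were lower (26.9% of all genes tested) and 0 were higher (12.0%). The 9 were Acly, Acat2, Sqle, Mvd, Fasn, Lss, Fdps, Acaca and Scd2. DESeq2 on the recovered reads called Acly and Fasn lower (8.89% of all genes) and Insig1 and Stard4 higher (14.7%). The quasi-likelihood test of edgeR called 0 members without the replicate block (8.44% of all genes) and 0 with it (8.03%), and the authors' deposited table gave 0 members at an FDR under 0.05 (12.7% of the genes tested here). With 2 libraries per medium, from 2 mice by the titles, these p-values measure the spread between libraries only.

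**Figure D1:**
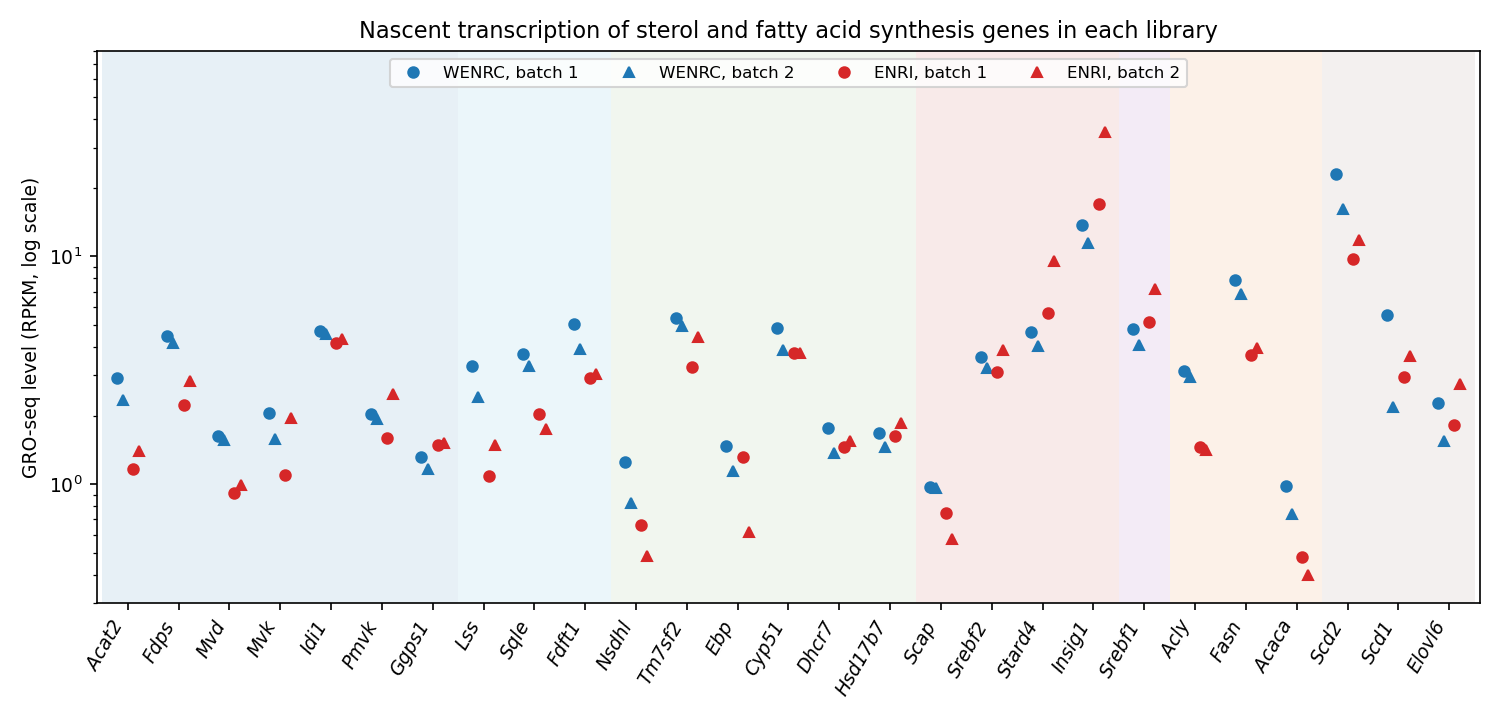
GRO-seq level in RPKM (log axis) of the 27 members past the filter in each library, WENRC in blue and ENRI in red, circles for batch 1 and triangles for batch 2. Shading marks, from left to right, mevalonate and isoprenoid steps, squalene to lanosterol, lanosterol to cholesterol, sterol sensing and transport, the regulator Srebf1, core fatty acid enzymes, and elongation and desaturation. Both ENRI points lie below both WENRC points for 15 genes and above them for Insig1, Stard4, Srebf1 and Ggps1.

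The libraries differed in depth, with 25839484 and 9245915 reads over all transcripts in WENRC of batch 1 and batch 2 and 29128101 and 15787828 in ENRI. Those totals count a read again for each transcript that it overlaps. With 1 transcript per gene they were 16302292 and 5868922 in WENRC and 18368188 and 10245627 in ENRI. Over the 11602 genes tested, log2(RPKM + 0.5) correlated at r = 0.949 between the WENRC libraries and r = 0.874 between the ENRI libraries (genes are not independent replicates). All 8 epithelial markers were above the filter, and the summed RPKM of the enterocyte list was 44.8 and 18.9 in WENRC and 586 and 822 in ENRI. The summed level of the crypt stem cell list was 16.9 and 22.4 RPKM in WENRC and 1.69 and 2.27 in ENRI, and of the proliferation list 27.7 and 27.8 against 11.9 and 15.7. All 4 goblet markers were higher in ENRI with no overlap, as were 23.0% of all genes tested. Their summed level was 7.08 and 4.32 RPKM in WENRC and 22.9 and 15.4 in ENRI. Of these 4 the mucin Muc2 passed limma, while Agr2 changed least, at 0.937 and 1.17 against 1.29 and 1.44 RPKM. The summed level of the Paneth list overlapped, at 14.1 and 22.6 against 9.99 and 23.2 RPKM. Most of that sum was Defa24, at 12.4 and 18.7 against 9.31 and 20.7 RPKM. All 3 tested Paneth genes had a lower fitted level in ENRI (65.7% of all genes tested). Of these Lyz1 and Defa24 overlapped. Mmp7 did not (49.7% of all genes tested were lower with no overlap), at 0.588 and 0.874 against 0.174 and 0.226 RPKM. In bulk libraries a smaller share of cells of one type and less transcription per cell cannot be told apart, and the part of these shifts in the members' values was not tested. None of the 6 fibroblast, 5 immune, 4 endothelial or 4 hepatocyte markers was above the filter, with highest single values of 0.0488, 0.482, 0.0466 and 0.465 RPKM. Of 5 adipocyte markers only the lipid droplet gene Cidec and the lipase Lipe were above it, and both were higher in ENRI, while the defining Adipoq and Lep stayed at or near 0. A list of 7 genes of repair epithelium was chosen because earlier results of these data showed it to split the ENRI libraries. Its summed RPKM was 113 in ENRI of batch 1 and 6.68 in ENRI of batch 2, against 26.1 and 43.2 in WENRC. That split follows from the choice of the list and is not an independent result.

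Promoters of the members were compared by sequence because genes of both branches are known to share short elements next to the start. RefSeq (GRCm38.p6) gave promoter entries for 22 of the 28 members, and the 250 bases before each start were searched on both strands. The sterol element of TCACNCCAC occurred in 1 of the 22, Hmgcs1, and in 1.22% of all symbols with an entry. The CCAAT box occurred in 17 of the 22 and in 37.5% of all symbols, or 40.1% of the symbols tested for transcription. It was present in 15 of 17 sterol branch members and 2 of 5 fatty acid branch members, and 10 members held at least 2 copies, as did 11.5% of all symbols. The GC box GGGCGG also occurred in 17 of the 22, against 35.4% of all symbols and 63.2% of the tested ones. A match describes the letters and not a bound site, and a missing one says only that those letters are not in the window. The 5 windows printed here, each 250 bases upstream of a start and read 5′ to 3′ on the strand of the gene, show the single sterol element (Hmgcs1), the window with most CCAAT boxes (Mvk), enzymes of each branch that were lower in ENRI (Lss and Fasn) and the member with the largest increase in mean (Insig1). Capitals mark the sterol element and CCAAT boxes, a box on the other strand appearing as ATTGG, and GC boxes are in lower case. In GRCm38.p6 they lie at chr13:119690101-119690350, plus strand (Hmgcs1), chr5:114444019-114444268, plus strand (Mvk), chr10:76531355-76531604, plus strand (Lss), chr11:120824548-120824797, minus strand (Fasn) and chr5:28071162-28071411, plus strand (Insig1).
Hmgcs1: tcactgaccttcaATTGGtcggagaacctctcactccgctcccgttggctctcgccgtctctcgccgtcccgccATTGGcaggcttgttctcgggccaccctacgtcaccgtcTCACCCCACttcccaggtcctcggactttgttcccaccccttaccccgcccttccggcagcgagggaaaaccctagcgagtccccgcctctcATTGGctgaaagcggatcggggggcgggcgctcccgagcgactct
Mvk: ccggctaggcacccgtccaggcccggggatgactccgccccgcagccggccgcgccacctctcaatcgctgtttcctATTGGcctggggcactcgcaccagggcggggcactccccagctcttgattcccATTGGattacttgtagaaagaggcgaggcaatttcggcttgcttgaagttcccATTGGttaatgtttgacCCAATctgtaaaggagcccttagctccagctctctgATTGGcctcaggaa
Lss: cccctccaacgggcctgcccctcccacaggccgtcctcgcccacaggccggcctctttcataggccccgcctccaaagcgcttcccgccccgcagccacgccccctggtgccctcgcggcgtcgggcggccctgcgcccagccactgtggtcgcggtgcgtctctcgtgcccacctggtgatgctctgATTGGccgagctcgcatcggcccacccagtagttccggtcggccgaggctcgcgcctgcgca
Fasn: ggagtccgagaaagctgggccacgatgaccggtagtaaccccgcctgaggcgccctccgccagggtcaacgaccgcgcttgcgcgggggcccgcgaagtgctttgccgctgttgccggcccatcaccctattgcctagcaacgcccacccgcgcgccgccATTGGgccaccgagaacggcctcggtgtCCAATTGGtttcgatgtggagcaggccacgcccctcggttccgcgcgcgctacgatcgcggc
Insig1: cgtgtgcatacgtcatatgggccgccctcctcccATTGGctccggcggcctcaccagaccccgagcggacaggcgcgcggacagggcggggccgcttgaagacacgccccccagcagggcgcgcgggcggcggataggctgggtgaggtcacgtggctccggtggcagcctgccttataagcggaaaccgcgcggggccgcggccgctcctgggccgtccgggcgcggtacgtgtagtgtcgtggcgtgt
Mvk held 5 CCAAT boxes, Hmgcs1 and Fasn 3 each, and Lss and Insig1 1 each. A pair of the boxes in Fasn overlaps on opposite strands. The Hmgcs1 element begins 137 bases before the start.

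The mevalonate and isoprenoid enzymes turn acetyl-CoA into the building blocks of sterols and of prenyl groups. Acat2, the thiolase of the first step (NM_009338, chromosome 17, 13135908 to 13153591 in mm9), stood at 2.91 and 2.34 RPKM in the WENRC libraries of batch 1 and batch 2 and at 1.16 and 1.40 RPKM in the ENRI libraries. Its libraries did not overlap, and the log2 change, fitted on log2(RPKM + 0.5), was −0.81 ± 0.17 (SE, adjusted p = 0.0604, limma). Fdps, which makes the farnesyl group, had 4.48 and 4.18 RPKM in WENRC and 2.23 and 2.83 in ENRI, a log2 change of −0.68 ± 0.18 (adjusted p = 0.0786, limma). Mvd, which makes isopentenyl diphosphate, had 1.63 and 1.56 RPKM in WENRC and 0.915 and 0.986 in ENRI, a log2 change of −0.53 ± 0.12 (adjusted p = 0.0623, limma). For these 3 enzymes the gap between media was larger than the spread within either medium. Idi1, the isomerase of the next step, had 4.71 and 4.56 RPKM in WENRC and 4.15 and 4.33 in ENRI, a gap smaller than its standard error on the log2 scale (−0.12 ± 0.17), and its sign turned with TMM scaling.

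The kinases of the same route did not separate. Mevalonate kinase (Mvk) had 2.06 and 1.57 RPKM in WENRC and 1.10 and 1.96 in ENRI, and phosphomevalonate kinase (Pmvk) 2.04 and 1.94 in WENRC and 1.59 and 2.48 in ENRI. In each case the ENRI library of batch 1 was the lowest of the 4, and for Pmvk that of batch 2 was the highest. Ggps1, which makes the geranylgeranyl group for protein prenylation, had 1.31 and 1.17 RPKM in WENRC and 1.48 and 1.52 in ENRI, and was the one member of this group above WENRC in both ENRI libraries (log2 change 0.20 ± 0.12, adjusted p = 0.271, limma). Hmgcs1, the synthase that follows Acat2, is listed in mm9 only on an unplaced piece of chromosome 13 with 2 copies, and is at 0 in all 4 libraries. That listing gives no information on its transcription, and it is the member that was not tested.

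All 3 enzymes from squalene to lanosterol were lower in ENRI with no overlap, as were 49.7% of all genes tested. Lss, which closes the ring (NM_146006, chromosome 10, 75994372 to 76016679), had 3.31 and 2.41 RPKM in WENRC and 1.09 and 1.48 in ENRI, and the log2 change of −0.91 ± 0.21 was the largest decrease among the members in this fit (SE, adjusted p = 0.0663, limma). From recovered reads the ENRI level was 0.329 times that of WENRC in batch 1 (exact 95% interval 0.301 to 0.359) and 0.614 times in batch 2 (0.542 to 0.696). These conditional binomial intervals cover counting error only, since reads after PCR are not independent molecules. A noncoding transcript, 4930483K19Rik, covers 36.15% of Lss on the other strand and had 5.29 and 2.94 RPKM in WENRC and 1.52 and 1.67 in ENRI. The strand setting of the counting is not given in the sources used here, so reads of the pair cannot be told apart. Sqle, the epoxidase (NM_009270, chromosome 15, 59146647 to 59162748), had 3.72 and 3.30 RPKM in WENRC and 2.04 and 1.74 in ENRI, a log2 change of −0.75 ± 0.16 (adjusted p = 0.0622, limma). Its decrease was alike in the batches, at 0.548 times and 0.528 times the WENRC level. Fdft1, squalene synthase, had 5.03 and 3.93 RPKM in WENRC and 2.91 and 3.04 in ENRI, a log2 change of −0.51 ± 0.19 (adjusted p = 0.129, limma).

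The 6 enzymes from lanosterol to cholesterol varied more. Nsdhl, a dehydrogenase that helps remove methyl groups, had 1.25 and 0.830 RPKM in WENRC and 0.662 and 0.484 in ENRI, with a log2 change of −0.51 ± 0.19, or −0.32 without the WENRC library of batch 1. Tm7sf2, a sterol reductase, had 5.35 and 4.97 RPKM in WENRC and 3.28 and 4.42 in ENRI (−0.39 ± 0.21, or −0.20 without the ENRI library of batch 1). The demethylase Cyp51 had 4.83 and 3.88 RPKM in WENRC and 3.77 and 3.75 in ENRI (−0.18 ± 0.19). These 3 lay lower in both ENRI libraries, but for Cyp51 the gap was within the spread of WENRC and its sign turned under TMM scaling. The isomerase Ebp overlapped, at 1.47 and 1.14 RPKM in WENRC and 1.32 and 0.619 in ENRI. The last reductase, Dhcr7, at 1.76 and 1.37 against 1.46 and 1.54 RPKM, and the reductase Hsd17b7, at 1.68 and 1.46 against 1.63 and 1.85 RPKM, overlapped as well. Adjusted p in limma lay between 0.131 for Nsdhl and 0.857 for Dhcr7 in this group.

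Among the 4 genes that sense and move sterols, Insig1 and Stard4 were higher in ENRI, Scap was lower and Srebf2 overlapped. Insig1, which retains the SREBP escort (NM_153526, chromosome 5, 28397952 to 28405202), had 13.7 and 11.5 RPKM in WENRC and 16.9 and 35.2 in ENRI, and its mean level was above that of 97.9% of the genes tested. Both ENRI libraries lay above WENRC, but they differed from each other by more than the batch 1 library differed from WENRC. The log2 change was 0.94 ± 0.44 (SE, adjusted p = 0.185, limma), made of 0.30 in batch 1 and 1.58 in batch 2, and it was 0.42 without the ENRI library of batch 2 and 1.46 without that of batch 1. By reads, ENRI was at 1.24 times WENRC in batch 1 (exact 95% interval 1.17 to 1.30) and 3.08 times in batch 2 (2.85 to 3.33). Stard4, a cytosolic sterol carrier, had 4.66 and 4.04 RPKM in WENRC and 5.65 and 9.52 in ENRI, with a log2 change of 0.70 ± 0.31 (adjusted p = 0.167, limma), 0.25 in batch 1 and 1.14 in batch 2, and 0.34 or 1.05 with the ENRI library of batch 2 or batch 1 left out. Srebf2 itself had 3.62 and 3.25 RPKM in WENRC and 3.11 and 3.88 in ENRI (0.02 ± 0.19), so no difference was seen beyond its spread. Scap had 0.969 and 0.965 RPKM in WENRC and 0.744 and 0.576 in ENRI (−0.34 ± 0.13, adjusted p = 0.136, limma), lower in both ENRI libraries. Leaving Insig1, Stard4, Srebf2 and Scap out, the 16 tested enzymes of the sterol branch had a median log2 change of −0.36, with 10 lower and 1 higher in both ENRI libraries than in both WENRC libraries (49.7% and 23.0% of all genes tested).

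The core enzymes of fatty acid synthesis were the most even group among the members. Acly, which splits citrate into acetyl-CoA (NM_001199296, chromosome 11, 100337666 to 100389314), had 3.13 and 2.94 RPKM in WENRC and 1.45 and 1.41 in ENRI. Its log2 change of −0.87 ± 0.13 had the lowest adjusted p of the members (0.0560, limma), and the ENRI level was 0.463 times and 0.480 times that of WENRC in the batches. Fasn, which builds palmitate (NM_007988, chromosome 11, 120667272 to 120685861), had 7.86 and 6.85 RPKM in WENRC and 3.69 and 3.94 in ENRI (−0.86 ± 0.19, adjusted p = 0.0623, limma). Acaca, the carboxylase that makes malonyl-CoA (NM_133360, chromosome 11, 84008940 to 84215153), had 0.982 and 0.740 RPKM in WENRC and 0.477 and 0.399 in ENRI (−0.53 ± 0.15, adjusted p = 0.0854, limma). All of these 3 were lower with no overlap, as were 49.7% of all genes tested. Each ENRI level was between 0.463 and 0.574 times the WENRC level of its batch. The pseudocount shrinks the change of Acaca, the member at the 12.9th percentile of level, whose ratio of means was 0.509.

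Srebf1, the regulator of this branch, was higher in ENRI while the core enzymes were lower. It had 4.82 and 4.07 RPKM in WENRC and 5.17 and 7.16 in ENRI, a log2 change of 0.42 ± 0.24 (adjusted p = 0.255, limma). The gap in batch 1 was 0.09 on the log2 scale and in batch 2 it was 0.75, and the fitted change was 0.20 without the ENRI library of batch 2 and 0.64 without that of batch 1. The desaturases and the elongase that finish fatty acids split. Scd2, the desaturase at the 97.1st percentile of level, had 23.1 and 16.2 RPKM in WENRC and 9.75 and 11.8 in ENRI (−0.82 ± 0.30, adjusted p = 0.127, limma), and did not overlap. Its relative Scd1 had 5.51 and 2.17 RPKM in WENRC and 2.96 and 3.67 in ENRI, with both ENRI values lying between the WENRC values. Elovl6, which lengthens palmitate, had 2.27 and 1.55 RPKM in WENRC and 1.82 and 2.76 in ENRI, also with overlap. Scd1 and Scd2 are near relatives, and how reads that fit more than 1 gene were assigned is not given in the sources used here.

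**Figure D2:**
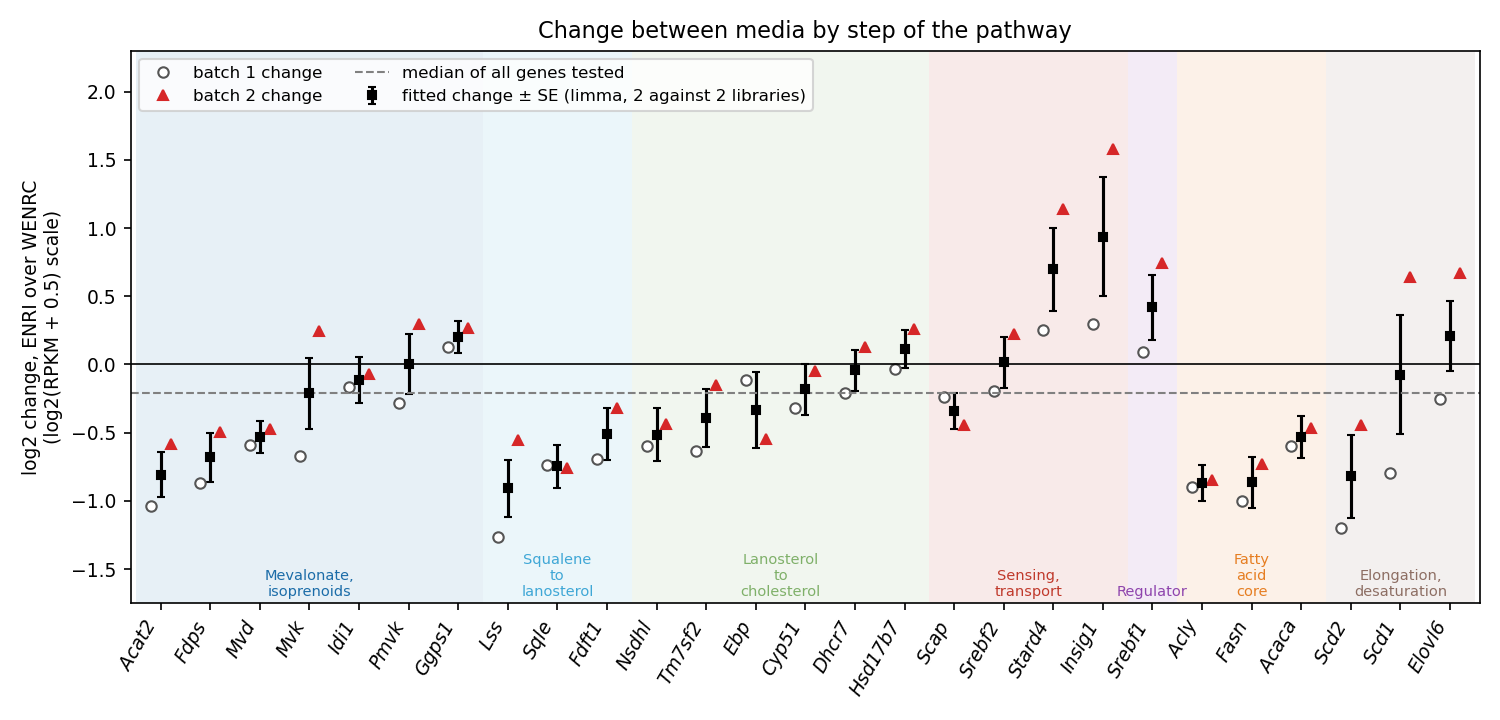
Fitted log2 change on the log2(RPKM + 0.5) scale, ENRI over WENRC, of each tested member with its standard error (black squares, limma, 2 against 2 libraries), beside the change within batch 1 (open circles) and batch 2 (red triangles), grouped by step. The dashed line is the median of all genes tested, −0.21. The squalene to lanosterol and core fatty acid genes lie below it in both batches, and the batch 2 points of Insig1 and Stard4 lie at 1.58 and 1.14.

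By branch, 11 of 20 tested sterol members and 4 of 7 fatty acid members were lower in both ENRI libraries than in both WENRC libraries (49.7% of all genes tested), and 3 and 1 were higher (23.0%). The lower counts are near the background in each branch. Insig1, Stard4 and Ggps1 are the 3 higher sterol members, and Srebf1 is the fatty acid one. The median log2 change was −0.27 in the sterol branch (−0.15 without the WENRC library of batch 1) and −0.53 in the fatty acid branch, where the median is the value of Acaca. The difference between the branches was not tested, since members are not replicates. TMM scaling moved the median of all genes to −0.02, that of the sterol branch to −0.08 and that of the fatty acid branch to −0.39. With that scaling 15 of 27 members were lower, instead of 19, near the 51.8% of all genes tested that were lower under it. The 3 enzymes from squalene to lanosterol and the 3 core fatty acid enzymes were lower under it and under quantile normalization.

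The spread of levels between members was wide. Per kb of gene body, Insig1 and Scd2 had the highest mean RPKM over the 4 libraries, and Acaca and Nsdhl the lowest, at the 12.9th and 21.7th percentiles of the genes tested. Of the regulators, Srebf1 (90.3rd percentile) lay above Srebf2 (82.8th). The reads behind a tested member ranged from 80 (Ebp, ENRI of batch 2) to 7860 (Scd2, WENRC of batch 1), so counting error is small beside the gap between libraries for most members and widest for Ebp, whose ratio in batch 2 was 0.545 (exact 95% interval 0.397 to 0.747). In the authors' deposited table, fitted with batch as a term, Insig1 was the member with the lowest FDR, at a log2 change of 1.21 and an FDR of 0.0761. The authors' deposited table gave Stard4 1.00 (FDR 0.122), Lss −0.91 (FDR 0.165) and Acly −0.84 (FDR 0.173). By FDR in that table Insig1 and Stard4 come before Lss and Acly, whereas by adjusted p in limma Acly comes first.

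The batches shared the direction for 20 of 27 members, 16 lower and 4 higher, and 7 went opposite ways. The change in batch 2 lay above that in batch 1 for 24 of 27 members, including 7 of 7 in the fatty acid branch and 17 of 20 in the sterol branch, against 45.1% of all genes tested. The exceptions were Sqle, Ebp and Scap. Over all genes the batch medians were −0.16 and −0.24, whereas over the members they were −0.59 and −0.15. The summed RPKM of the tested members was 118.2 and 94.86 in WENRC of batch 1 and batch 2, and 82.55 and 114.8 in ENRI. Over all genes tested the median RPKM was 1.526 and 1.485 in WENRC and 1.366 and 1.258 in ENRI. Each tested member was higher in WENRC of batch 1 than in WENRC of batch 2, though by little for some, as for Scap (0.969 and 0.965 RPKM). The share of all genes tested with that order was not counted, so it is not read as a trait of the members. The batch 2 change was also above that of batch 1 for 9 of 9 tested enterocyte markers. Their median log2 change was 2.44 in batch 1 and 4.53 in batch 2, so such a shift was not particular to the members. It was above for 3 of 5 crypt stem cell and 2 of 6 proliferation markers. For the repair epithelium list named above, which was chosen for its split of the ENRI libraries, it was above for 0 of 7. The part of these differences in the members' values was not tested. Each batch has 1 library per medium, so no test within a batch is possible.

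**Figure D3:**
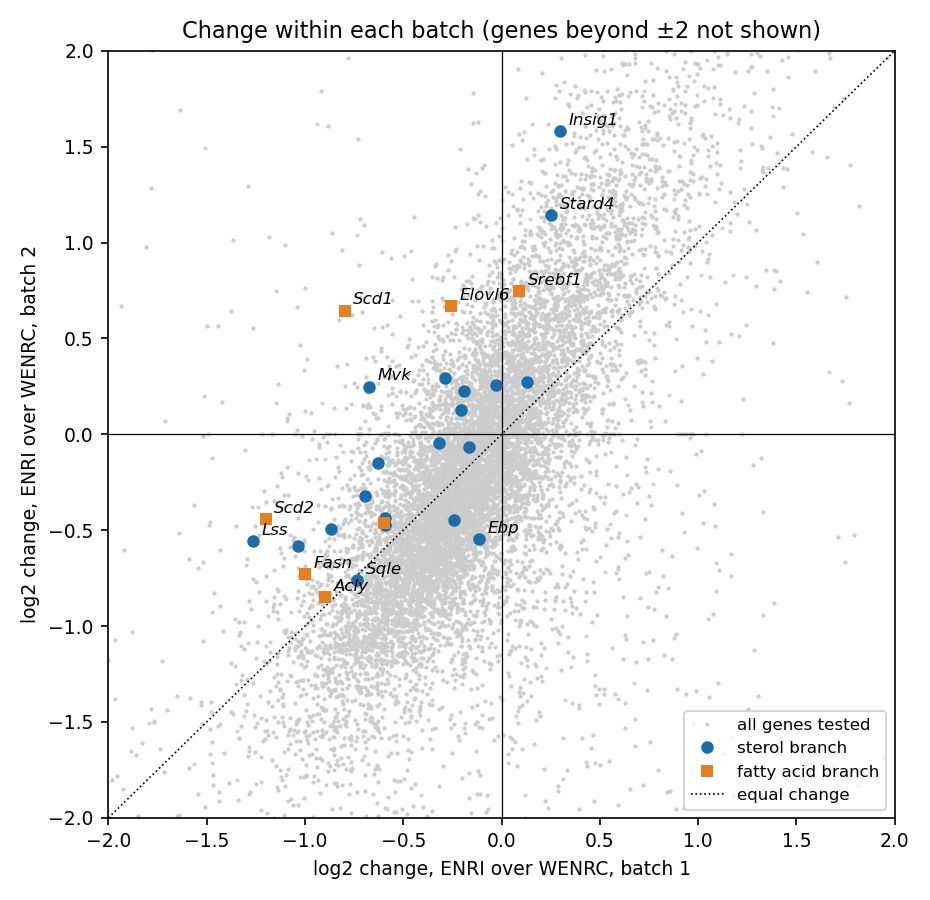
Log2 change (log2(RPKM + 0.5), ENRI over WENRC) within batch 1 (x axis) and batch 2 (y axis) for all genes tested (grey) and the members of the sterol branch (blue circles) and fatty acid branch (orange squares), with the line of equal change dotted. Members above the line changed more upwards, or less downwards, in batch 2, and 24 of 27 lie there.

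Further genes of sterol and fatty acid metabolism were read from 5 lists. Among 14 tested genes of fatty acid synthesis outside the branch, 13 were lower in ENRI, 9 of them with no overlap, and the median log2 change was −0.44. Over all genes tested 65.7% were lower and 49.7% were lower with no overlap. The count of 13 depends on the scaling and includes Mlxipl, at a log2 change of −0.007 with overlap. With TMM scaling 9 of the 14 were lower, where 51.8% of all genes tested were. After quantile normalization 11 of the 14 were lower, as were 6248 of all 11602 genes tested. None passed limma, and 7 were lower at an unadjusted p under 0.05, as were 26.9% of all genes tested. Fads1, a desaturase of polyunsaturated fatty acids, had 4.16 and 2.90 RPKM in WENRC and 0.543 and 0.580 in ENRI (−1.91 ± 0.19, adjusted p = 0.0560, limma). Its neighbour and partner Fads2 had 3.11 and 2.42 RPKM in WENRC and 0.758 and 0.880 in ENRI (−1.30 ± 0.16, adjusted p = 0.0560, limma). Each had a larger log2 decrease than any member, and DESeq2 and edgeR's quasi-likelihood test called both lower.

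Of 7 tested genes of the liver X receptors, sterol efflux and esterification, 6 were higher in ENRI, as were 3982 of all 11602 genes tested. For 5 of them there was no overlap (23.0% of all genes tested), and the median log2 change of the list was 0.82. In limma 0 passed, with 4 higher and 1 lower at an unadjusted p under 0.05 (12.0% and 26.9% of all genes tested). DESeq2 called 5 higher and 1 lower (14.7% and 8.89% of all genes tested). The quasi-likelihood test of edgeR called 1 (8.44% of all genes tested), Soat1, which was lower. Abcg5, which pumps sterols back into the gut lumen as a dimer with Abcg8, had 2.38 and 1.32 RPKM in WENRC and 5.37 and 17.1 in ENRI (2.15 ± 0.61, adjusted p = 0.0848, limma). Abcg8 had 2.17 and 1.09 RPKM in WENRC and 4.86 and 12.2 in ENRI (2.00 ± 0.52, adjusted p = 0.0755, limma). DESeq2 called both higher, the authors' deposited table gave them an FDR of 0.000653 and 0.000496, and edgeR's quasi-likelihood test did not call them. As with Insig1 and Stard4, the ENRI library of batch 2 was the highest of the 4.

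Sterol synthesis enzymes outside the branch were divided, with 2 lower and 3 higher of 5. Msmo1, the methyl oxidase that acts beside Nsdhl, had 5.75 and 5.56 RPKM in WENRC and 3.44 and 4.07 in ENRI (−0.53 ± 0.18, adjusted p = 0.112, limma). Sc5d, a desaturase of the last steps, had 2.87 and 2.54 RPKM in WENRC and 3.62 and 4.82 in ENRI (0.55 ± 0.20, adjusted p = 0.127, limma). Of 5 further regulators of SREBP, 3 were higher and 2 lower, and none passed limma. The proteases that release SREBP moved apart, with Mbtps1 at 1.54 and 1.37 RPKM in WENRC and 1.68 and 2.05 in ENRI (0.27 ± 0.15), and Mbtps2 at 0.870 and 0.876 against 0.567 and 0.276 (−0.59 ± 0.19). Of 9 tested users of isoprenoids 7 were lower, as were 65.7% of all genes tested. Their median log2 change was −0.11, a smaller decrease than the −0.21 over all genes tested. With TMM scaling 4 of the 9 were lower (51.8% of all genes tested). In limma 0 passed, and 1 was lower at an unadjusted p under 0.05 (26.9% of all genes tested). Rabggtb, a subunit of the enzyme that prenylates Rab proteins, had 15.1 and 12.4 RPKM in WENRC and 10.3 and 5.79 in ENRI, and Dhdds, of dolichol synthesis, 1.10 and 1.17 against 0.696 and 0.554.

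**Figure D4:**
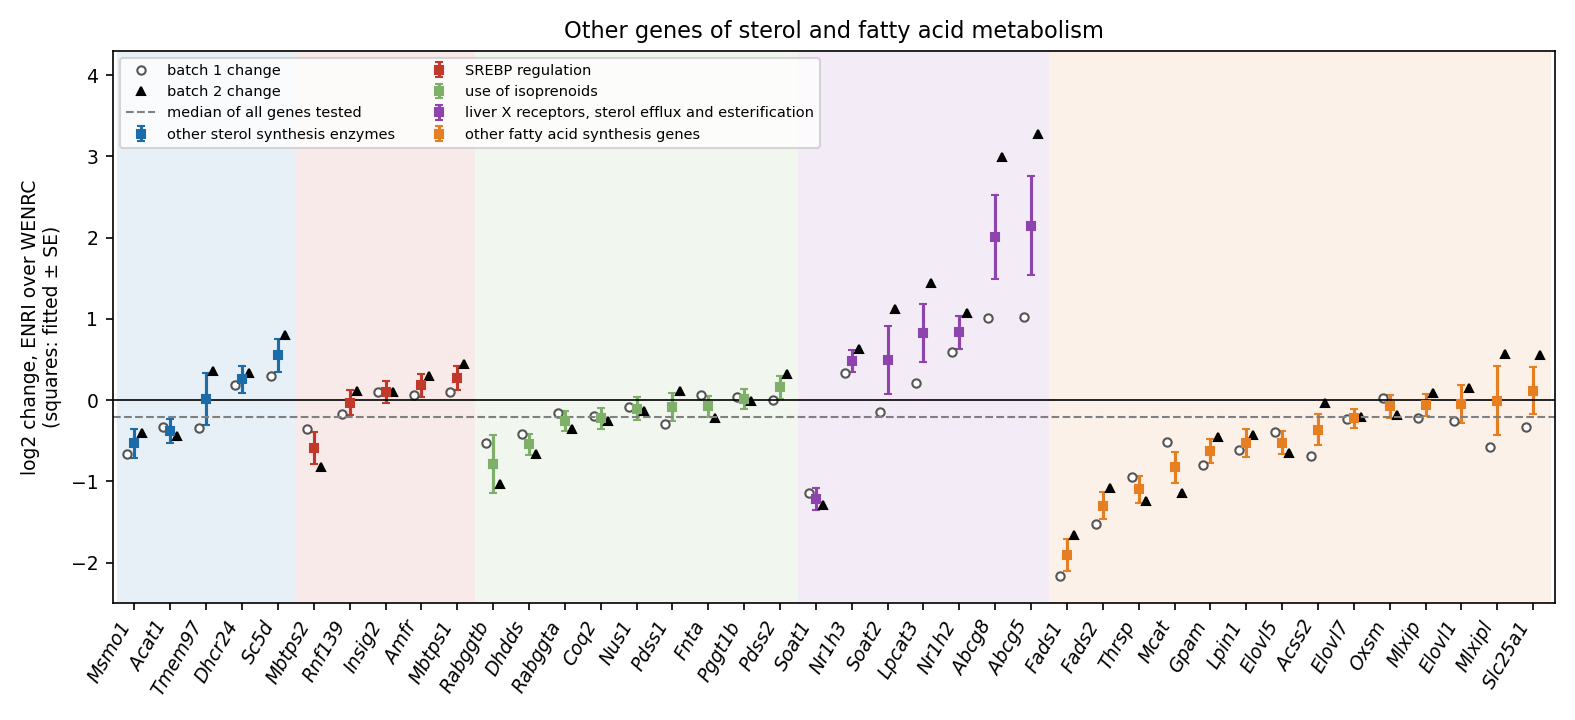
Log2 change, ENRI over WENRC, of tested genes in the 5 further lists, with the fitted change ± SE as coloured squares and the changes within batch 1 (open circles) and batch 2 (black triangles). Fads1 and Fads2 lie lowest, at −1.91 and −1.30, and Abcg5 and Abcg8 highest, at 2.15 and 2.00.

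No H3K27me3 region lay at the promoter of a member with a placed start in the peak lists of either medium. Hmgcs1 has no placed start in mm9 and cannot be assessed. A broad region overlapped 2 kb either side of a start in 0 of the other 27 members in WENRC and 0 of 27 in ENRI, while regions marked 10.7% and 8.96% of all genes and 3.18% and 2.94% of the genes tested for transcription. The count was also 0 of 27 in each medium with the narrow lists, with 1 or 5 kb either side, with the stronger regions only and with a larger overlap. The broad region nearest to any member with a placed start was that near Pmvk, 26.1 kb away in WENRC and 28.3 kb in ENRI, and the median distance over 27 members was 160.5 and 161.5 kb. With 3.18% of tested genes marked, a set of this size would hold few marked genes at the background share, so the count of 0 is near the background.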

How the data were processed

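Of 10 samples, 4 GRO-seq and 2 H3K27me3 ChIP-seq libraries were used. The samples of input DNA and of histone H3 have no files of their own among those used here. The members and gene lists were chosen with earlier results of these data known.

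The authors deposited scaled signal per RefSeq transcript in mm9, counted over gene bodies with HOMER, per the file headers. The submitters' processing notes name Bowtie, Bowtie2, FastQC, HOMER (4.3) and edgeR. Each deposited column totals 20000300. All values under 100 reads were whole multiples of a library's step (100%, tolerance 0.1), so reads were recovered. Another 4 columns with values per library (RPKM) were not used, as only 1 measure per library could be mapped. The log2 fold changes and p-values of the authors' deposited table came from edgeR with batch as a term, per the file headers, and the likelihood ratio score there was not used. HOMER peak lists made by the authors, 1 library at a time against input, gave the regions, and the deposited score, normalized tag signal and fold ratio over input are their values.

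RPKM was computed from the scaled signal with the longest transcript per symbol (24016 symbols of 33022 transcripts). The filter kept genes at 0.5 RPKM or more in 2 or more libraries. The test was limma (3.58.1, R 4.3.3, mean trend) on log2(RPKM + 0.5), unblocked, with Benjamini-Hochberg adjustment and a threshold of 0.05. The titles number mice 1 and 2 in both media. Columns carry only a batch number, and deviations of same-batch libraries from their group means correlated at 0.0126 over 11602 genes, so the block was an alternative. Count models (edgeR 4.0.16, DESeq2 1.42.0), scalings, filters, pseudocounts, another transcript and each library left out were the others. Scripts were tested on simulated data. All 28 members are named, and from each further list the 2 tested genes with the largest absolute change.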

Additional observations from a re-analysis of the deposited data

Results flagged for a closer look

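Mvk, Pmvk, Srebf2, Scd1 and Elovl6 had a lower level in ENRI than in WENRC in batch 1 and a higher one in batch 2, in both cases beyond the counting error of the reads. The log2 change was −0.67 in batch 1 and 0.25 in batch 2 for mevalonate kinase (Mvk), −0.29 and 0.29 for phosphomevalonate kinase (Pmvk), and −0.19 and 0.22 for Srebf2. For the desaturase Scd1 it was −0.80 and 0.65, and for the elongase Elovl6 −0.26 and 0.67. The difference between the batches was not tested for any of them, since each batch has 1 library per medium.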

How the results depend on the processing

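No member passed limma in the reported fit. Without ENRI replicate 1, 7 of 20 tested sterol members and 3 of 7 fatty acid members passed, as did 5794 of all 11602 genes tested. Passing in that fit was therefore not particular to the members. They were Acat2, Ebp, Mvd, Scap and Sqle lower, Insig1 and Stard4 higher, and Acaca, Acly and Fasn lower. The spread in that fit comes from the WENRC pair alone, so these are not read as calls. With 1 library left out the counts ranged from 0 to 7 and from 0 to 3, and over all genes from 0 to 5794 (0 without either WENRC library, 685 without ENRI replicate 2). DESeq2 called 2 members in each branch, and quantile normalization called 1 in the fatty acid branch, Acly. Over all genes, against 17, the calls numbered 1 with a pseudocount of 0.1 RPKM, 0 without the filter (5201 at an unadjusted p under 0.05), 929 after quantile normalization, 0 with TMM scaling (4015 unadjusted), 0 with the replicate block in limma (3839 unadjusted), 979 in edgeR, 932 in edgeR with the replicate block and 2738 in DESeq2. Chosen after seeing the data was edgeR after its own filter on low counts, with 0 calls (3884 unadjusted) without and 193 with the replicate block. In limma and edgeR 0 members were called with or without the block, and it was not run with DESeq2 or quantile normalization. Calls in the quantile fit were 507 higher and 422 lower, in DESeq2 1707 and 1031, and in edgeR 650 and 329, while limma had 7 and 10. The sterol median was −0.13 after quantile normalization and −0.082 with TMM, and −0.36 to −0.15 with 1 library left out, and the fatty acid median −0.83 with a pseudocount of 0.1 and −0.27 after quantile normalization. The causes were not tested. Depth limits Ebp most, with 86 and 80 reads in the libraries of batch 2.

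Of 27 tested members 18 kept their sign under every alternative run. With TMM scaling the log2 change of Idi1 was 0.12, of Dhcr7 0.16, of Cyp51 0.05 and of Scd1 0.15. In edgeR it was 0.118 for Idi1, 0.183 for Dhcr7, 0.034 for Cyp51, 0.035 for Scd1 and 0.0083 for Mvk, and with the replicate block 0.116, 0.191, 0.041 and 0.165 for the first 4. After the filter of edgeR it was 0.117, 0.173 and 0.026 for Idi1, Dhcr7 and Cyp51, and with the block 0.120, 0.195 and 0.045, and 0.170 for Scd1. In DESeq2 it was 0.149 for Idi1, 0.214 for Dhcr7, 0.064 for Cyp51, 0.075 for Scd1 and 0.048 for Mvk. Quantile normalization gave 0.09 for Dhcr7 and −0.00057 for Srebf2, and a pseudocount of 0.1 gave −0.00041 for Pmvk. Ranges with 1 library left out were −0.52 to 0.096 for Mvk, −0.25 to 0.26 for Pmvk, −0.18 to 0.096 for Dhcr7, −0.68 to 0.020 for Ebp, −0.12 to 0.16 for Srebf2, −0.66 to 0.51 for Scd1 and −0.038 to 0.45 for Elovl6.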

Other observations

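3 genes of the further lists stood out after their values were seen and are outside the rule for named genes. Soat1, which esterifies cholesterol for storage, had 1.81 and 2.19 RPKM in WENRC and 0.547 and 0.598 in ENRI, a log2 change of −1.22 ± 0.14 (SE, adjusted p = 0.0560, limma), and DESeq2 and edgeR's quasi-likelihood test called it lower. Soat2, in the same list, did not follow it. It overlapped, at 2.46 and 2.21 RPKM in WENRC and 2.18 and 5.42 in ENRI (0.49 ± 0.42, adjusted p = 0.416, limma). Thrsp, a lipogenic gene also known as Spot14, had 1.37 and 1.28 RPKM in WENRC and 0.467 and 0.250 in ENRI (−1.10 ± 0.17, adjusted p = 0.0560, limma), and DESeq2 but not edgeR's quasi-likelihood test called it lower. Nr1h2, which encodes a liver X receptor, had 2.89 and 2.64 RPKM in WENRC and 4.63 and 6.07 in ENRI (0.83 ± 0.20, adjusted p = 0.0692, limma), and DESeq2 but not edgeR's quasi-likelihood test called it higher.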
